A study of Mus musculus with 6 samples.

Results

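The nuclear-encoded subunits of respiratory complexes II, III, IV and V and cytochrome c were examined in pancreatic islets of Control and Pax8 +/- mice. A gene was taken as a member where its platform symbol was Sdha, Sdhb, Sdhc, Sdhd, Cyc1 or Cycs, or began with Uqcr, with Atp5, or with Cox followed by a digit from 4 to 8 and a letter. This gave 49 of the 19505 genes measured, with 4 in complex II, 9 in complex III, 18 in complex IV, 17 in complex V and cytochrome c itself, each read by 1 probe set. Islet RNA was hybridized to 6 Clariom S arrays, 3 from Control (wild type) and 3 from Pax8 +/- mice. The animals were C57BL/6 males aged 9 months that had been fasted, and the labels name no treatment in either group. Pax8 +/- mice carry 1 disrupted copy of Pax8 in every tissue. Pax8 encodes a transcription factor of thyroid follicular cells, and the mice serve as a model of reduced thyroid hormone supply. Islets were released with collagenase and picked by hand. The sources do not say how many mice gave islets to an array. P-values therefore cover only the spread among these samples, part of which may be technical.

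The respiratory chain sits in the inner mitochondrial membrane. Complex II, succinate dehydrogenase, feeds electrons from succinate to ubiquinone, complex III (the cytochrome bc complex) passes them to cytochrome c, and complex IV, cytochrome c oxidase, hands them to oxygen. Complexes III and IV pump protons on the way, and complex V, the ATP synthase, lets them flow back to make ATP. In beta cells, ATP made this way from glucose closes ATP-sensitive potassium channels, which couples glucose to insulin secretion. Thyroid hormone is a known regulator of respiratory genes in several tissues.

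Values are the deposited log2 levels, in which a difference of 1 is a factor of 2, and every difference below is the mean of the Pax8 +/- arrays minus that of the Control arrays. Background on an array was set at the 95th percentile of its 5222 negative controls, a log2 level between 7.60 and 7.97. Of the 49 members, 35 stood above it on all 6 arrays, 6 on some and 8 on none, and none came within 0.1 of the upper end of the scale. Pax8 itself was not above background on any array, with log2 levels of 4.82 ± 0.21 (SD, n = 3) in Control and 4.73 ± 0.25 (SD, n = 3) in Pax8 +/- islets, and so does not check the labels. Arrays did not group by genotype alone. Pax8 +/- replicate 1 had its closest match in Control replicate 1 (r = 0.984 over probe sets), and Control replicate 3 in Pax8 +/- replicate 2 (r = 0.983). Of 20 beta-cell markers, 16 were above background on all arrays, and of 15 acinar markers 11 were, 7 of them at the upper end of the scale, so that RNA of exocrine tissue was present beside that of islets. In such bulk RNA, a change in the number of cells of a type and a change in RNA per cell cannot be told apart.

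Among the 49 members, 29 had a higher and 20 a lower mean in Pax8 +/- islets, with a median log2 difference of 0.22. The largest was 1.82, for Cox6a1, and the lowest -0.67, for Cyc1, which was not above background on any Pax8 +/- array. Over all 22206 gene probe sets the median was -0.01 and 49.2% had a higher mean. Of the 35 members above background on all arrays, 23 had a higher mean, with a median of 0.32 and a range from -0.59 for Cycs to 1.82 for Cox6a1, beside a median of 0.02 and a share of 52.0% among the 4812 probe sets of that kind. In the limma model, fitted on all gene probe sets and 2-sided, 6 members had an unadjusted p of at most 0.05 with the higher mean in Pax8 +/- islets, as did 3.14% of all probe sets, and 1 had it with the lower mean, as did 2.77%. A gene is said below to pass the test where it met this threshold. These were Sdhc, Uqcrc2, Cox6a1, Atp5d, Atp5g2 and Atp5g3 above and Cyc1 below. None of them passed an adjusted p of 0.05, nor did any probe set on the array (smallest adjusted p = 0.745 in limma, with 1312 probe sets at an unadjusted p under 0.05). Without Pax8 +/- replicate 1, 29 probe sets had an adjusted p under 0.05 in limma, and without any other single array 0 had. The groups did not overlap, with Pax8 +/- higher, for Uqcrc2, Uqcr10 and Atp5g3, where this held for 4.52% of all probe sets, and with Pax8 +/- lower for Uqcrfs1 and Atp5c1, where it held for 5.14%. With the study's cutoffs, a fold change of 2.5 and an unadjusted p of 0.05, put on the limma values, 2 members passed, Cox6a1 and Atp5g2. Both were higher in Pax8 +/- islets, as were 0.648% of all probe sets, and 0 passed as lower, beside 0.351% of all probe sets. Fold changes here compare means of log2 levels. At the same p-values, the study printed larger fold changes for Slc2a1, Pfkfb3 and Ak4, and it counted more genes in each direction. Its own calls among the members can therefore differ from these.

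**Figure D1:**
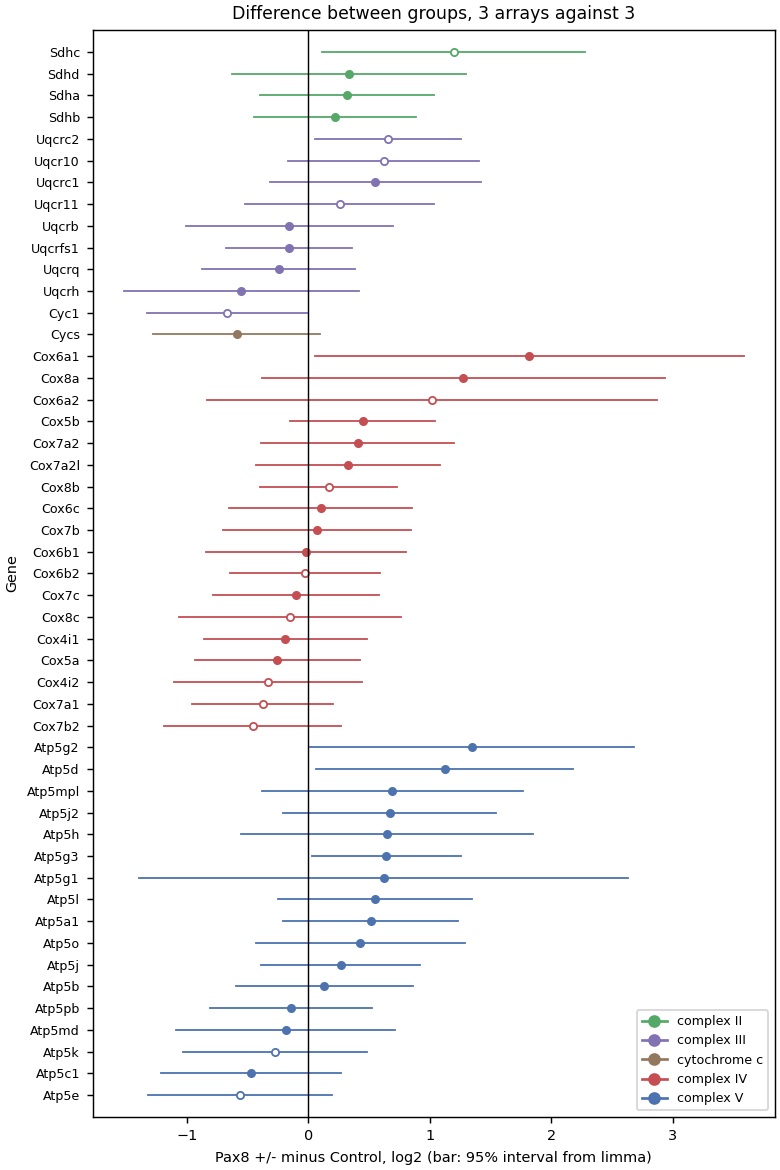
Log2 difference of each of the 49 members, Pax8 +/- minus Control (horizontal axis), with 1 row per gene and colours for the complexes. Points are differences of means of 3 arrays against 3, bars are 95% intervals from limma, and open points mark genes that were not above background on all 6 arrays. The intervals of 7 genes exclude 0, 6 of them above and Cyc1 below, and the widest lie at Atp5g1, Cox6a2 and Cox6a1.

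Promoter windows were read for the members because genes of this group are known to share binding sites of NRF1, a transcription factor of nuclear genes for mitochondria, and of ETS factors such as GABP. RefSeq windows (build GRCm38.p6, 250 bases before to 50 after each gene's start) were at hand for 37 of the 49 members and for 27025 genes in all. Letters searched on both strands were GCATGCGC for NRF1, CCGGAAG for ETS factors, AAGATGGC for YY1, GGGCGG for SP1 and ACGTG for the core of hypoxia-responsive elements. No motif holds another, but NRF1 letters on opposite strands can overlap each other, as GCGCATGCGC. The NRF1 letters were in 8 of 37 member windows, or 21.6%, beside 2.80% of all windows. The ETS letters were in 12, or 32.4%, beside 9.12%, the YY1 letters in 2, or 5.41%, beside 2.88%, the SP1 letters in 15, or 40.5%, beside 35.9%, and the hypoxia core in 12, or 32.4%, beside 19.7%. Over the 17491 windows of protein-coding genes, the kind to which the members belong, the shares were 3.60% for NRF1, 11.9% for ETS, 3.22% for YY1, 46.3% for SP1 and 20.7% for the hypoxia core, so that the share of members with SP1 letters was below this background. A match describes the letters of a window and is neither a measured site nor a cause. The 5 windows shown include those of Cox6a1 and Atp5g2, the 2 members past both cutoffs as computed here. The others belong to cytochrome c and Cox8a, respectively low and high on Pax8 +/- replicates 2 and 3, and to Atp5d, which holds none of the letters in capitals. Capitals mark matches to the NRF1, ETS or YY1 letters, and each sequence runs 5′ to 3′ along the gene.
Cox6a1 (chr5:115348909-115349208, minus strand): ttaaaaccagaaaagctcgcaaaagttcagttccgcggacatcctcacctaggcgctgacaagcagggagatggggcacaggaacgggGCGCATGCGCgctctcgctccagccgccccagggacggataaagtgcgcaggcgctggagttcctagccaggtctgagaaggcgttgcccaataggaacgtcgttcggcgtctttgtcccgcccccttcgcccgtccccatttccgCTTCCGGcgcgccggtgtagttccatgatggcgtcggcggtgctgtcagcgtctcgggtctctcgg
Atp5g2 (chr15:102670998-102671297, minus strand): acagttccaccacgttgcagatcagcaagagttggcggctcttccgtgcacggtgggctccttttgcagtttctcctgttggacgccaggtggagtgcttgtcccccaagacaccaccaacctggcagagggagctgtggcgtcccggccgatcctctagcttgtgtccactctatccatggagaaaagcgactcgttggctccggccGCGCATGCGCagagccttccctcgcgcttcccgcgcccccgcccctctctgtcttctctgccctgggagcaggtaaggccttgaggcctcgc
Cycs (chr6:50566520-50566819, minus strand): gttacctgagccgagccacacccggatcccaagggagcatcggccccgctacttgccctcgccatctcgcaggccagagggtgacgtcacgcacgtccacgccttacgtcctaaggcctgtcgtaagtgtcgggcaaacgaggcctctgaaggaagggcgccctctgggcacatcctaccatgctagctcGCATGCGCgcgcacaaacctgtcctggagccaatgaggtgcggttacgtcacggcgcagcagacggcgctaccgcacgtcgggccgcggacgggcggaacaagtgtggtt
Cox8a (chr19:7217567-7217866, minus strand): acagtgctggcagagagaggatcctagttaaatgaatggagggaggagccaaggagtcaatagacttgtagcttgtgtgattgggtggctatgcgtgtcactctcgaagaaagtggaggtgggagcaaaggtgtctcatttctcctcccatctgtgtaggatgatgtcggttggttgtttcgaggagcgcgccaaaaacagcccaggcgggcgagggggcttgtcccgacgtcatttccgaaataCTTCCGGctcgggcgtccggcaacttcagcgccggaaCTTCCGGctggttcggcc
Atp5d (chr10:80142025-80142324, plus strand, the first of several windows): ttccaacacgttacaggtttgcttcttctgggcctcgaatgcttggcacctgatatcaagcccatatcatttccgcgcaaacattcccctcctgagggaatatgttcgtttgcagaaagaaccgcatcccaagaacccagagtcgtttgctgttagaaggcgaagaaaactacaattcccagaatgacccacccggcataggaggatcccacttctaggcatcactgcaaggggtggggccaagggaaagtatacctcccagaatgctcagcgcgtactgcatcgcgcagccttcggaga

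Cox6a1, Atp5g2 and Cycs hold NRF1 letters, as do Sdhb, Uqcr11, Uqcrc1, Atp5k and Atp5l, and Cox6a1 and Cox8a hold ETS letters. Members with and without a match overlapped in their differences. The 8 with NRF1 letters had a median log2 difference of 0.40, from -0.59 for Cycs to 1.82 for Cox6a1, with a higher mean for 6 of 8, and the 29 without had a median of 0.17 with a higher mean for 17. For the ETS letters the medians were 0.24 over 12 members with a match and 0.26 over 25 without.

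All subunits of complex II, the only complex of the chain that is also an enzyme of the citric acid cycle, had a higher mean in Pax8 +/- islets, with a median log2 difference of 0.33. Sdhc, a membrane anchor that binds ubiquinone and haem, accounted for the largest of the 4. Its log2 level was 7.98, 7.10 and 8.47 on the Control arrays and 8.19, 9.26 and 9.70 on the Pax8 +/- arrays. Replicates 2 and 3 of Pax8 +/- stood above every Control array, and replicate 1 stood inside the Control range. The mean rose from 7.85 ± 0.69 (SD, n = 3) to 9.05 ± 0.78 (SD, n = 3), a log2 difference of 1.20 (standard error 0.47, limma adjusted p = 0.745, unadjusted p = 0.034). Control replicate 2 was not above background for this gene.

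The other 3 subunits did not pass the test and their groups overlapped. Sdhd, the second membrane anchor, read 9.03, 9.19 and 10.41 in Control and 9.50, 10.40 and 9.74 in Pax8 +/- islets, a log2 difference of 0.34 (95% interval -0.63 to 1.30). Control replicate 3 was the highest array of all for this gene. Sdha, the flavoprotein that oxidizes succinate, read 8.48, 8.59 and 8.89 against 9.13, 9.38 and 8.41, a difference of 0.32 (95% interval -0.40 to 1.04). Here Pax8 +/- replicate 3 lay below all Control arrays and the other 2 above them, unlike the order for Sdhc. Sdhb, the iron-sulfur subunit, gave the smallest difference of the complex, 0.22 (95% interval -0.45 to 0.89), with Control levels of 10.14, 10.66 and 11.02 around Pax8 +/- levels of 11.00, 10.80 and 10.69.

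In complex III, 4 members had a higher and 5 a lower mean, with a median log2 difference of -0.16, and the core proteins and the electron carriers lay on opposite sides of 0. With cytochrome c added, the median was also -0.16, and it became 0.05 when Control replicate 3 was left out. Uqcrc2, a core protein that faces the matrix, was higher on every Pax8 +/- array than on any Control array. It read 7.85, 8.11 and 8.17 in Control and 8.98, 8.73 and 8.40 in Pax8 +/- islets, and unlike most members it was highest on Pax8 +/- replicate 1. The mean rose from 8.05 ± 0.17 (SD, n = 3) to 8.70 ± 0.29 (SD, n = 3), a log2 difference of 0.66 (standard error 0.26, limma adjusted p = 0.745, unadjusted p = 0.0353). Control replicate 1 was not above background for Uqcrc2. Uqcrc1, the other core protein, whose transcript the study also followed in liver, read 9.40, 9.21 and 9.80 against 9.45, 10.81 and 9.80. Its difference of 0.55 (95% interval -0.32 to 1.42) came mainly from Pax8 +/- replicate 2, and the groups overlapped.

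The subunits that carry electrons had lower means. Cyc1, the haem protein cytochrome c1 that donates electrons to cytochrome c, read 7.99, 7.67 and 8.11 in Control and 7.70, 7.02 and 7.05 in Pax8 +/- islets, with Pax8 +/- replicate 1 just inside the Control range. The mean fell from 7.93 ± 0.23 (SD, n = 3) to 7.26 ± 0.39 (SD, n = 3), a log2 difference of -0.67 (standard error 0.29, limma adjusted p = 0.745, unadjusted p = 0.0475). Cyc1 was above background on 2 Control arrays and on no Pax8 +/- array, so that its level there is only bounded. Control replicate 2 was not above background either, so that no least fold change can be given. Uqcrfs1, the Rieske iron-sulfur protein, varied little within groups, at 9.89, 9.84 and 10.01 in Control and 9.73, 9.77 and 9.76 in Pax8 +/- islets. Its groups did not overlap, but the log2 difference of -0.16 (95% interval -0.68 to 0.36) did not pass limma's test, which draws the spread of a single gene toward that of all genes.

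Uqcr10, a small subunit beside cytochrome c1, was not above background on any Control array and was above it on 1 Pax8 +/- array. Its levels were 6.87, 7.09 and 7.09 in Control and 7.11, 8.34 and 7.46 in Pax8 +/- islets, so that the groups did not overlap, though by a margin of less than 0.1 at Pax8 +/- replicate 1, and no fold change is given. The other 4 small subunits, Uqcr11, Uqcrb, Uqcrh and Uqcrq, had log2 differences between -0.56 and 0.26, none past the test, and Uqcr11 was below background on all arrays.

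Cycs, the somatic cytochrome c that shuttles electrons from complex III to complex IV, had a lower mean in Pax8 +/- islets. It read 13.46, 13.97 and 13.40 in Control and 13.40, 13.03 and 12.62 in Pax8 +/- islets. Replicates 2 and 3 of Pax8 +/- were below all Control arrays, and replicate 1 lay at the lower edge of the Control range. The log2 difference of -0.59 (standard error 0.30, 95% interval -1.28 to 0.10) did not pass the test (limma adjusted p = 0.745, unadjusted p = 0.0837). Cycs and Cyc1 thus gave their lowest levels on the same arrays on which Sdhc, Cox6a1 and Atp5g2 gave their highest.

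**Figure D2:**
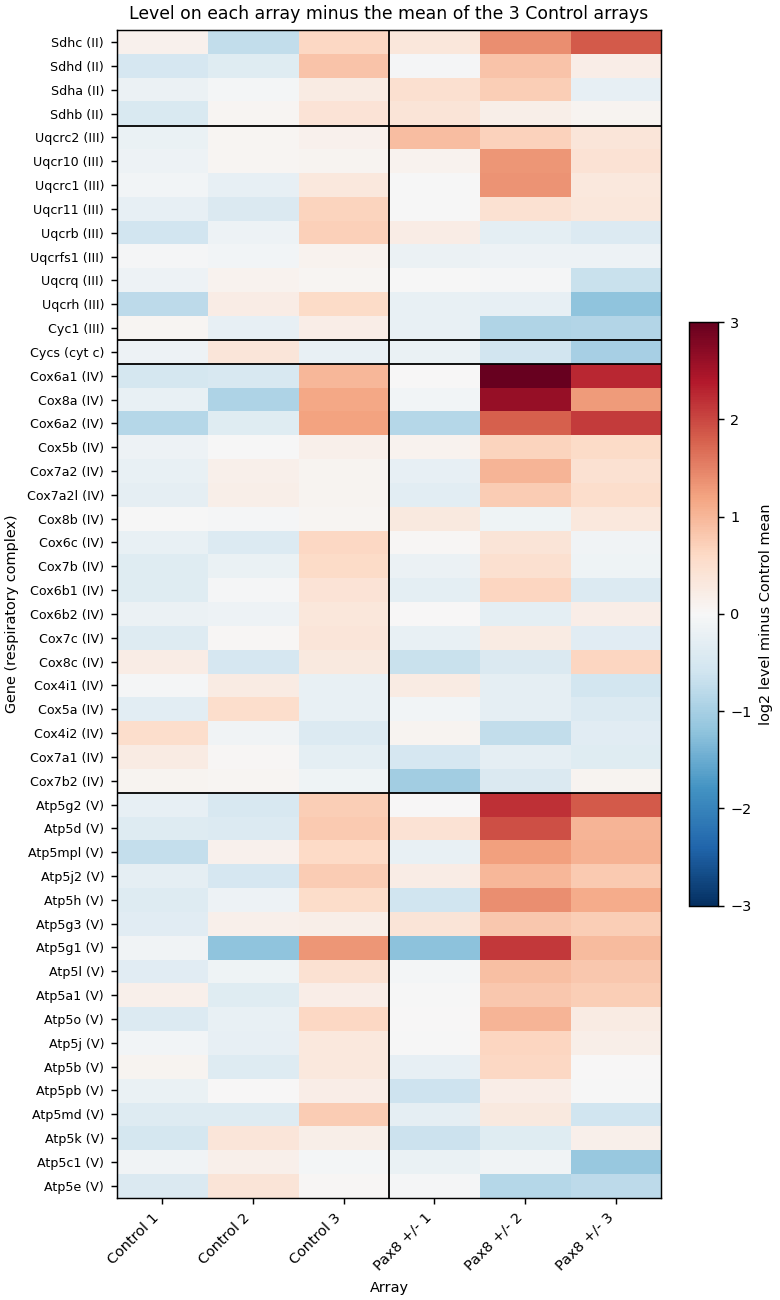
Log2 level of each member on each array minus the mean of the 3 Control arrays (colour scale), with genes in rows by complex and arrays in columns. Red fields lie mainly on Control replicate 3 and on Pax8 +/- replicates 2 and 3, whose mean deviations over all members were 0.36, 0.56 and 0.24. Control replicate 3 was the highest Control array for 37 of 49 members. Cyc1, Cycs, Atp5e and Atp5c1 are blue on Pax8 +/- replicate 3.

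In complex IV, 9 members had a higher and 9 a lower mean, and the median log2 difference was 0.02, a value that turned to between -0.06 and -0.02 when Control replicate 1, Control replicate 2 or Pax8 +/- replicate 2 was left out and to -0.05 when arrays were scaled to a common 75th percentile. Large differences were limited to a few subunits. Cox6a1, the form of subunit VIa made in most tissues, read 11.67, 11.72 and 13.19 in Control and 12.21, 15.37 and 14.45 in Pax8 +/- islets. Pax8 +/- replicates 2 and 3 stood above every Control array, and replicate 1 at the Control mean. The mean rose from 12.19 ± 0.86 (SD, n = 3) to 14.01 ± 1.63 (SD, n = 3), a log2 difference of 1.82 (standard error 0.77) or 3.53-fold (limma adjusted p = 0.745, unadjusted p = 0.0447), the largest among the 49 members. Without Pax8 +/- replicate 1 the difference was 2.72, and without Pax8 +/- replicate 2 it was 1.14 and did not pass (limma unadjusted p = 0.16).

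Cox8a, the form of the small subunit VIII found in most tissues, followed the same arrays. Its log2 levels were 12.53, 11.81 and 13.91 in Control and 12.67, 15.37 and 14.04 in Pax8 +/- islets. The difference of 1.28 (standard error 0.73, 95% interval -0.39 to 2.94) did not pass the test. Pax8 +/- replicate 1 lay inside the Control range, and Control replicate 3 came within 0.2 of Pax8 +/- replicate 3. Cox5b, a zinc-binding subunit whose transcript the study also followed in liver, read 11.12, 11.27 and 11.42 against 11.37, 11.94 and 11.84, a difference of 0.45 (95% interval -0.15 to 1.04) that did not pass. Over the 10 widely expressed subunits, 6 had a higher mean, 1 was past the test and the median difference was 0.08. Cox7a2l, which helps to join complexes III and IV into supercomplexes, had a difference of 0.33 and overlapping groups.

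Several subunits of complex IV exist in 2 or more forms, of which 1 is made in most tissues and the other in few, such as heart, skeletal muscle, lung or testis. Of the 7 restricted forms, 6 were not above background on any array, namely Cox4i2, Cox6b2, Cox7a1, Cox7b2, Cox8b and Cox8c, with group means between 3.10 and 4.85. The exception was Cox6a2, the heart and muscle form of subunit VIa, which was above background on 3 of 6 arrays. It read 6.76, 7.24 and 8.81 in Control and 6.75, 9.40 and 9.70 in Pax8 +/- islets, high on the same 3 arrays as Cox6a1. Its log2 difference of 1.02 (95% interval -0.84 to 2.87) did not pass the test.

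For 4 pairs of forms, the level of the restricted form minus that of the common form was taken on each array, and the groups were compared with an exact 2-sided permutation test over arrays, which cannot go below p = 0.1 with 3 against 3. Only the difference between groups can be read, since the levels of different probe sets are not comparable. Between the groups, Cox6a2 minus Cox6a1 differed by -0.80 (exact p = 0.2) and Cox7a1 minus Cox7a2 by -0.78 (exact p = 0.2). For Cox8b minus Cox8a the value was -1.11 (exact p = 0.5), and for Cox4i2 minus Cox4i1 it was -0.14 (exact p = 0.7). In 3 of the 4 pairs the restricted form was below background on all arrays, and the differences of the common forms of these pairs were 0.41 for Cox7a2, 1.28 for Cox8a and -0.19 for Cox4i1.

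In complex V, 12 of 17 members had a higher mean, beside 4 of 4 in complex II and 25 of 35 in complex I. The median log2 difference was 0.51, and 3 members passed the test, all higher. They belong to the ring that turns in the membrane and to the stalk that it drives. The c ring is made of a protein encoded by several genes, Atp5g1, Atp5g2 and Atp5g3, whose mature product is the same and which differ in the peptide that guides it into mitochondria. All 3 had a higher mean, and the first is named here to complete the ring. Atp5g2 read 12.15, 11.89 and 13.12 in Control and 12.39, 14.58 and 14.22 in Pax8 +/- islets, with Pax8 +/- replicate 1 at the Control mean. Its mean rose from 12.39 ± 0.64 (SD, n = 3) to 13.73 ± 1.18 (SD, n = 3), a log2 difference of 1.35 (standard error 0.58) or 2.55-fold (limma adjusted p = 0.745, unadjusted p = 0.0479).

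Atp5g3 was higher on every Pax8 +/- array than on any Control array, at 9.91, 10.40 and 10.43 against 10.64, 11.05 and 10.98. The mean rose from 10.25 ± 0.29 (SD, n = 3) to 10.89 ± 0.22 (SD, n = 3), a log2 difference of 0.64 (standard error 0.27, limma adjusted p = 0.745, unadjusted p = 0.0423). It is the only member past the test and above background on all arrays whose groups did not overlap. Atp5g1 had a difference of 0.62 on a much wider spread, from 10.92 to 13.46 in Control and from 10.92 to 14.27 in Pax8 +/- islets, and its 95% interval ran from -1.39 to 2.63. Control replicate 3 and Pax8 +/- replicates 2 and 3 were its 3 highest arrays, as for Cox6a1 and Cox8a, and Pax8 +/- replicate 1 was its lowest.

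Atp5d, the delta subunit of the central stalk, read 11.44, 11.41 and 12.59 in Control and 12.25, 13.74 and 12.83 in Pax8 +/- islets. The mean rose from 11.82 ± 0.68 (SD, n = 3) to 12.94 ± 0.75 (SD, n = 3), a log2 difference of 1.12 (standard error 0.46, limma adjusted p = 0.745, unadjusted p = 0.0403). No other subunit of the F1 part passed the test. Without Pax8 +/- replicate 2 the difference of Atp5d was 0.72. Atp5a1, the alpha subunit, whose transcript the study also followed in liver, read 14.74, 14.24 and 14.80 against 14.58, 15.41 and 15.32, a difference of 0.51 (95% interval -0.21 to 1.23). Atp5c1, the gamma subunit that forms the shaft of the rotor, was lower on every Pax8 +/- array, at 13.01, 13.27 and 13.05 against 12.91, 13.01 and 11.98. The margin at Pax8 +/- replicate 2 was under 0.1, most of the difference of -0.48 (95% interval -1.22 to 0.26) lay at replicate 3, and it did not pass the test.

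Over the 5 subunits of the F1 part, the median log2 difference was 0.13, from -0.56 to 1.12, with 1 past the test. The peripheral stalk, which holds the head still, had a median of 0.35 over 4 subunits with none past the test, and the 5 accessory subunits of the membrane part a median of 0.55, also with none. Among the latter, Atp5mpl had the largest difference, 0.69 (95% interval -0.39 to 1.77), from levels of 9.64, 10.50 and 10.95 in Control and 10.15, 11.60 and 11.42 in Pax8 +/- islets, and Atp5k was below background on all arrays. Atpif1, the inhibitor protein that keeps the enzyme from running backwards and is no member by symbol, read 10.42, 9.82 and 11.34 against 10.24, 12.69 and 12.56. Its difference of 1.30 did not pass the test (limma adjusted p = 0.745, unadjusted p = 0.0873), with Pax8 +/- replicate 1 inside the Control range.

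**Figure D3:**
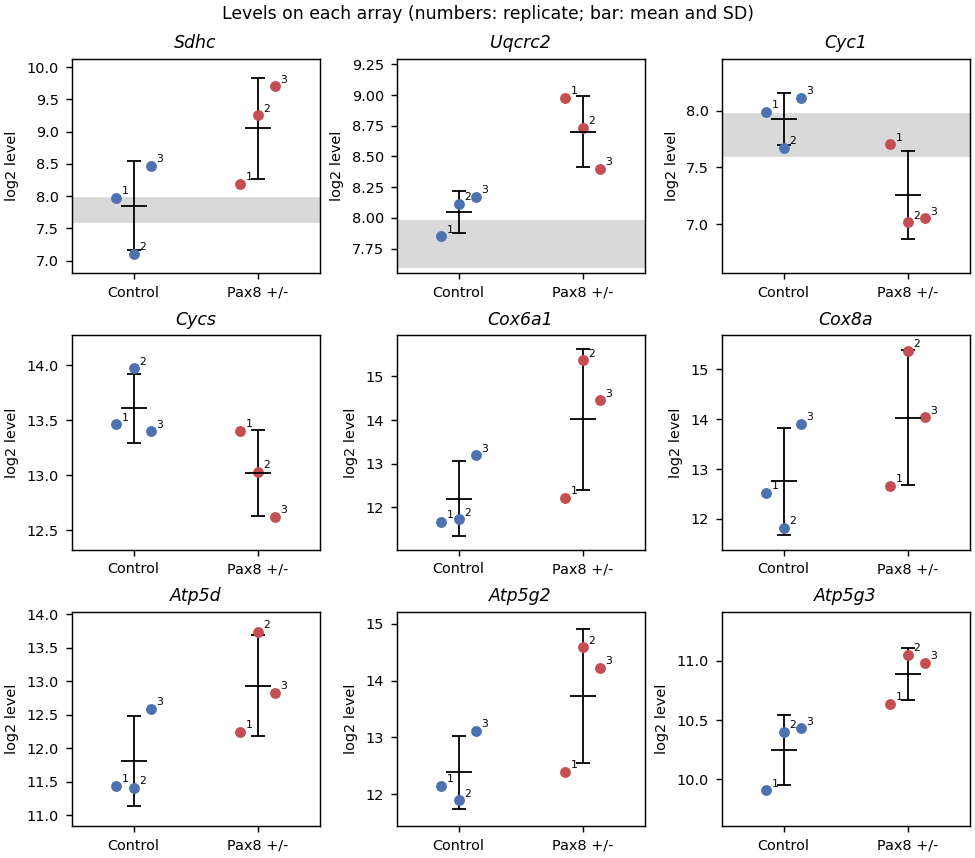
Log2 level of 9 members on each array (vertical axes, each with its own range) in Control and Pax8 +/- islets (horizontal axis), with replicate numbers beside the points and bars for mean and SD of 3 arrays. Grey bands span the background of the 6 arrays, 7.60 to 7.97. The groups separate only for Uqcrc2 and Atp5g3, and for Cox6a1, Cox8a and Atp5g2 Pax8 +/- replicate 1 stands with the Control arrays.

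Arrays of a genotype also differed from each other in these genes. Pax8 +/- replicate 1 lay inside the range of the Control arrays for 31 of 49 members. It was above all Control arrays for 6, as against 24 for replicate 2 and 21 for replicate 3, and below all of them for 12, 10 and 13. With all 3 Pax8 +/- arrays, 3 of 49 members were above all Control arrays, beside 4.52% of all probe sets, and 2 were below, beside 5.14%. Shares were also taken for replicates 2 and 3 together, a pair that leaves out replicate 1, whose closest match was a Control array. Replicates 2 and 3 were both above all Control arrays for 36.7% of members, beside 15.9% of all probe sets and 22% of those above background on all arrays. Both were below all Control arrays for 12.2% of members, beside 16.1% and 24.4%. The mean level over all members was 9.97, 10.06 and 10.56 in Control and 10.09, 10.76 and 10.44 in Pax8 +/- islets, so that Control replicate 3 stood above Pax8 +/- replicate 3. The median member spanned 0.79 log2 units over the Control arrays and 0.83 over the Pax8 +/- arrays, beside 0.65 and 0.69 over all probe sets.

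Counts of members past the test followed the arrays kept. With Control replicate 1, Control replicate 2 or Pax8 +/- replicate 2 left out, 0 members passed limma's test as higher, beside 1.38%, 1.13% and 1.30% of all probe sets. Without Pax8 +/- replicate 3 there was 1 member, with 1.50% of all probe sets, and without Control replicate 3 there were 8 members, with 6.26%. Without Pax8 +/- replicate 1 there were 13 of 49, or 26.5%, with 7.99% of all probe sets, and 3 were lower, or 6.12%, with 7.35% of all probe sets. Each of the 7 members that passed the test with all arrays missed it in 4 of these 6 runs. The median difference over all members ran from 0.04 without Control replicate 2 to 0.41 without Control replicate 3. For complex II it ran from 0.16 without Control replicate 1 to 0.60 without Control replicate 3, and for complex V from 0.13 without Pax8 +/- replicate 2 to 0.77 without Pax8 +/- replicate 1.

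Other gene groups moved on the same arrays. The 20 beta-cell markers measured all had a higher mean in Pax8 +/- islets, with a median log2 difference of 1.04. Of these, 1 passed the test (Nkx2-2, a beta-cell transcription factor, limma adjusted p = 0.745). Ins2 and Iapp reached the scale's upper end in all 6 samples, so their difference of 0.015 gives no direction. Scg2 reached it in 3 samples and Chga in 1. The mean level over all 20 markers was 13.40, 12.22 and 14.49 in Control and 13.25, 15.25 and 15.20 in Pax8 +/- islets. This puts the same 3 arrays on top as for Cox6a1, Cox6a2, Cox8a and Atp5g2. Of 25 targets of the hypoxia response, 24 had a lower mean and 8 passed the test, all lower, with a median of -1.48. They stood at 11.05, 11.92 and 10.62 in Control and at 11.49, 8.59 and 8.39 in Pax8 +/- islets. Duct markers had a median of -0.71, with mean levels of 12.81 to 13.38 in Control and 11.81 to 13.43 in Pax8 +/- islets. Of 10 duct markers 1 passed the test, lower (Cftr, which was below background on all arrays). Acinar markers had a median of -0.02, with 16.14 to 16.34 against 15.74 to 16.23, where the upper end of the scale hides differences. The 6 acinar markers at the upper end on no array had a median of -0.92, with a lower mean for 5 and 1 past the test, lower (Rbpjl, which was below background on all arrays). Their mean level was 10.96, 11.01 and 10.45 in Control and 10.71, 10.02 and 9.58 in Pax8 +/- islets. Medians were 0.09 for alpha-cell, 0.35 for delta-cell, -0.31 for endothelial, -0.32 for mesenchymal, -0.24 for macrophage and -0.65 for immediate early genes. Below background on all arrays were 4 of 6 alpha-cell, 3 of 5 delta-cell, 6 of 9 mesenchymal and 7 of 9 macrophage markers. The medians of these 4 groups thus rest largely on undetected genes. Among endothelial markers it was 3 of 10, and among immediate early genes 3 of 12. Of all these lists, 2 of 9 macrophage markers passed as higher against the direction of their median, the complement genes C1qa, with 1.76 and above background on 2 of 6 arrays, and C1qc, which was below background on all. Of 10 endothelial markers 1 passed, Emcn, also higher, with 1.06, and of 12 immediate early genes 2 passed as lower, while none passed among the alpha-cell, delta-cell and mesenchymal markers. The adjusted p of each was 0.745 in limma. The part of cell composition and of the hypoxia response in the members' differences was not tested.

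**Figure D4:**
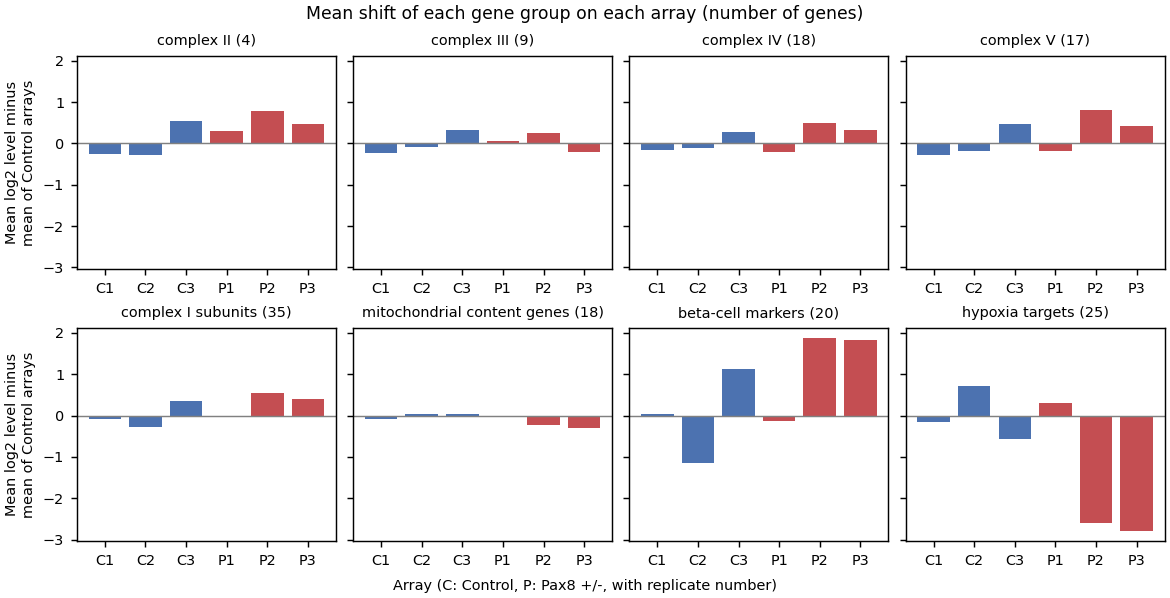
Mean over the genes of a group of the log2 level on each array minus the mean of the Control arrays (vertical axis), with Control arrays in blue and Pax8 +/- arrays in red (horizontal axis) and the number of genes above each panel. Complex V, complex I and the beta-cell markers are highest on Control replicate 3 and Pax8 +/- replicates 2 and 3, the hypoxia targets are lowest there, and the genes of mitochondrial content are low on Pax8 +/- replicates 2 and 3.

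Neighbouring mitochondrial groups were set beside the members. Complex I, the NADH dehydrogenase that starts the chain, had 25 of 35 subunits with a higher mean and a median log2 difference of 0.22, close to that of the members, with 3 past the test, all higher. These were Ndufb3, with 1.33 and above background on 4 of 6 arrays, Ndufs7, with 0.97, and Ndufa8, with 1.13 (limma adjusted p = 0.745 for each). Of 18 genes of general mitochondrial content, such as import pores and matrix chaperones, 13 had a lower and 5 a higher mean. The median was -0.17, with a range from -0.80 to 0.90, and 3 genes passed the test, all lower. They were the chaperones Hspe1 and Hspa9, with -0.72 and -0.80, and the import receptor Tomm70a, with -0.70 (limma adjusted p = 0.745 for each), and Hspe1 was above background on 2 of 6 arrays only.

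Factors that assemble the complexes gave few calls. Of 20 assembly factors of complex IV, 15 had a higher mean, with a median log2 difference of 0.17, but 11 of the 20 were below background on all arrays. Cox15, which makes the haem of complex IV, was higher by 0.93 (limma adjusted p = 0.745, unadjusted p = 0.0445), and Pet100 passed the test as lower but was below background on all arrays. The medians were 0.07 over 4 factors of complex II, 0.33 over 6 of complex III and 0.05 over 4 of complex V, with none past the test. Below background on all arrays were 4, 3 and 3 of these, so that the medians rest largely on undetected genes. Among 13 regulators of mitochondrial biogenesis the median was 0.07, with 7 of them below background on all arrays. Yy1, a transcription factor that can bind respiratory gene promoters, fell from 10.70 ± 0.44 (SD, n = 3) to 9.95 ± 0.23 (SD, n = 3), a difference of -0.75 (limma adjusted p = 0.745, unadjusted p = 0.0352). It read 10.97, 10.94 and 10.19 in Control and 10.15, 9.99 and 9.70 in Pax8 +/- islets, with every Pax8 +/- array below every Control array, as for 5.14% of all probe sets. The margin was thin, with Control replicate 3 at 10.19 and Pax8 +/- replicate 1 at 10.15. Gabpa, the DNA-binding subunit of GABP, had a difference of -0.60 that did not pass, and Ppargc1a, a coactivator of mitochondrial genes, was below background on all arrays. The subunits encoded by mitochondrial DNA were not analysed here.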

How the data were processed

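Islet RNA of 3 Control and 3 Pax8 +/- samples was measured on Clariom S arrays. The deposited log2 values were made by the authors with RMA (background correction, normalization between arrays and 1 summary value per probe set), and the Transcriptome Analysis Console is named beside it in the submitters' notes. No version, annotation or genome build is stated. Normalization between arrays makes levels relative to the array as a whole, and array medians lay between 5.25 and 5.33. Of 28846 rows, 5222 negative and 1418 other control probe sets were left out and 22206 gene probe sets tested with no filter on level, 19572 of them with 1 gene symbol from the platform annotation and 2634 unnamed here. All 49 members matched a gene of RefSeq.

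Groups were taken from the sample labels and compared with limma (version 3.58.1, under R 4.3.3; lmFit, then eBayes, 2-sided, no covariate, 4.32 prior degrees of freedom) on all gene probe sets, with Benjamini-Hochberg adjustment over all of them. A member or listed gene was said to pass the test at an unadjusted p of at most 0.05, the threshold of the study. No gene that passed had an adjusted p under 0.05. Background on an array was the 95th percentile of its negative controls, exceeded by 25.3% to 29.5% of gene probe sets. An array on which a gene was not above background gives only an upper bound for its level. The number of arrays limits the precision. Named genes are the members with the 3 smallest p or 3 largest differences of a complex, all of complex II and cytochrome c, every member past the test or with groups that do not overlap, forms of complex IV, members below background, the 3 members whose transcripts the study followed in liver, and up to 3 genes of each list with the smallest p. The members and lists were chosen with earlier results of these data known. Alternatives were each array left out, the replicate number as a block, other scalings, other moderation, array weights, filters on dim or very bright probe sets, all probe sets of a gene (every member has 1), and group medians. The code was tested on simulated data.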

Additional observations from a re-analysis of the deposited data

How the results depend on the processing

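With 3 arrays a group, most calls rest on which arrays are kept. The 7 called members kept their direction under every alternative run, keeping the call in 59 values and losing it in 45, and of the values of the other members 569 kept side and direction, 23 passed the test and 28 turned sign. Leaving out 1 array moved the members called higher (6) from 0 to 13, those called lower (1) from 0 to 3, the probe sets called higher (698) from 252 to 1775 and lower (614) from 263 to 1632. Array weights gave 14 members higher, and 1684 and 1392 probe sets. Without empirical Bayes moderation there were 2 members and 443 probe sets higher. A filter for probe sets above background on at least 3 arrays left 38 members, with 3 higher and 0 lower, and 184 and 150 probe sets, fewer being tested. Members called lower were also 0 with arrays scaled to 1 median and with an intensity trend and robust settings.

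The deviations of same-numbered arrays had correlations of 0.004, -0.421 and 0.139. These values were not set against a reference, so they cannot decide whether the numbers pair the samples, which was not tested. With the replicate number as a block, 4 members were higher and 0 lower, and 700 and 544 probe sets.

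Some differences that had not passed the test turned sign. Scaling to the 75th percentile gave Cox7b -0.007, and array weights gave Cox7c 0.081, Atp5md 0.021, Atp5pb 0.025 and Cox6b1 0.228. With 1 array left out, log2 differences ran from -0.104 to 0.414 for Cox6c, -0.144 to 0.360 for Cox7b, -0.014 to 0.425 for Sdhb, -0.117 to 0.321 for Atp5b and -0.134 to 1.543 for Atp5g1. They ran from -0.408 to 0.010 for Cox5a, -0.300 to 0.074 for Cox7c, -0.444 to 0.201 for Uqcrb, -0.431 to 0.197 for Atp5md and -0.358 to 0.179 for Cox6b1. For Cox6b2 the range was -0.139 to 0.136, for Atp5pb -0.315 to 0.086, for Cox8c -0.550 to 0.097, and for Cox4i2 minus Cox4i1 -0.325 to 0.135. The causes were not tested. Dim probe sets limit Cyc1, Uqcr10 and Atp5e, which were near background.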
